A study of Homo sapiens with 4 samples.

Results

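The genes described here build and regulate the contacts between epithelial cells. The list held 47 genes, given by their symbols (48 symbols, because MLLT4 is the older symbol of AFDN), and fell into tight junction, adherens junction, desmosome, gap junction, polarity and epithelial-mesenchymal transition (EMT) groups, with the adhesion molecule EPCAM beside them. Of these, 45 were found by symbol among the 16878 genes of the expression tables, and CDH11 and TWIST1 were not analysed here. A mean of at least 1 FPKM (RNA-seq fragments divided by transcript length and by the mapped total of the library, so that levels can be compared between genes) over all 4 libraries was reached by 40 of the 45, and these entered the test.

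The cells were PANC-1, an established human pancreatic cancer cell line of ductal origin, and their RNA was sequenced 48 h after transfection. The 2 Control libraries came from cells given a control transfection that the labels do not describe further. The 2 siSIRT1 libraries came from cells given small interfering RNA to SIRT1, a deacetylase of proteins that uses NAD. The study lists 1 siRNA for this gene, so the siSIRT1 group rests on a single 19-base sequence in a single cell line. It is shown because it defines the perturbed group, with no base marked.
siSIRT1: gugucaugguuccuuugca

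Epithelial cells are held together by several kinds of junction. Tight junctions seal the space between neighbours: claudins and occludin span the membrane, and the zonula occludens (TJP) and cingulin proteins tie them to actin. Adherens junctions join cells through cadherins, whose tails bind catenins, while desmosomes join them through desmogleins and desmocollins, which plakoglobin, plakophilins and plakins link to keratin filaments. Gap junctions are channels of connexins that pass small molecules between cells. The PAR complex and the Scribble complex set the apical and basolateral sides of the cell. In EMT, SNAI and ZEB factors repress epithelial genes, whereas ESRP, GRHL and OVOL proteins maintain the epithelial state, and pancreatic cancer lines differ widely in where they lie between these states.

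The libraries held an estimated 8760000 to 9160000 reads each. Between 65 and 41171 reads lay behind a value of a tested member, with a median of 490 reads. SIRT1 itself was at 10.46 and 10.25 FPKM in Control against 1.80 and 2.05 in siSIRT1, or 18.6% of the Control mean (log2 fold change -1.96, standard error 0.11, limma adjusted p = 1.33e-05). All 4 ductal keratins checked (KRT7, KRT8, KRT18 and KRT19) reached 1 FPKM, with a summed level of 4189 and 3965 FPKM in Control against 5056 and 4667 in siSIRT1. Most of that sum was KRT8 and KRT18. KRT7 was low and its groups overlapped, at 2.89 and 4.04 FPKM in Control against 3.19 and 3.09 in siSIRT1. None of the acinar (4 in the tables), endocrine (1), endothelial (3) or fibroblast (3) markers reached 1 FPKM. Of 3 immune markers in the tables, PTPRC and CD68, a lysosomal protein also made outside macrophages, reached 1 FPKM, and the summed level of these markers was 64.2 and 62.0 FPKM in Control against 43.3 and 40.4 in siSIRT1. The part of these keratin and immune marker values in the results below was not tested.

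SIRT1 knockdown was accompanied by falls in 4 claudins and in the connexin gene GJB2, while CGN and PKP2 had the largest rises. The comparison asks which of these genes differ between siSIRT1 and Control. By limma, 18 of the 40 tested members passed at an adjusted p of 0.05, of which 6 were higher and 12 were lower in siSIRT1. That is 45% of the members, beside 37.1% of all 12191 genes tested, and the 12 lower members are to be read against 13.1% lower and the 6 higher members against 24% higher over all genes. Among all genes the number of calls was 4521, and it was lower when 1 Control library was left out, whichever it was. The spread then came from the siSIRT1 pair alone. The log2 difference within that pair had an SD of 0.205, beside 0.164 within the Control pair, and its part in the lower number was not tested. Rises made up 64.8% of the 4521 calls, but 49.6% to 53.3% when the libraries were rescaled by quantile, upper-quartile or median-of-ratios methods. Among the members the same rescalings gave 5 higher and 14 lower. When the change was tested against a fold of 1.2 (limma's treat) in place of 0 change, 11 of the 18 calls held and those of TJP3, CDH2, DSP, EVPL, PARD3, PARD6B and SCRIB were lost. The ranges of adjusted p given for single genes leave that test out.

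Values of the groups did not overlap in 31 members, 12 with both siSIRT1 libraries above both Control libraries and 19 with both below. Over all genes, 69% did not overlap and 25.2% lay below. A fall of more than 2-fold in mean FPKM together with an adjusted p under 0.05 was seen in 4 of the 40 members, CLDN1, CLDN3, CLDN4 and GJB2, against 2.38% of all genes. At the thresholds the study names, a fold change above 1.2 and p under 0.001 (taken here as unadjusted), 4 members were higher and 10 lower, 14 of 40 against 18.1% of all genes. The fold cut was applied to the log2(FPKM + 1) difference and p came from limma, so these are not the study's own calls. The study reports more genes past its thresholds than were found here. The median log2 fold change of the members was -0.05, beside 0.07 over all genes tested, and the median size without regard to sign was 0.25 beside 0.21.

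**Figure D1:**
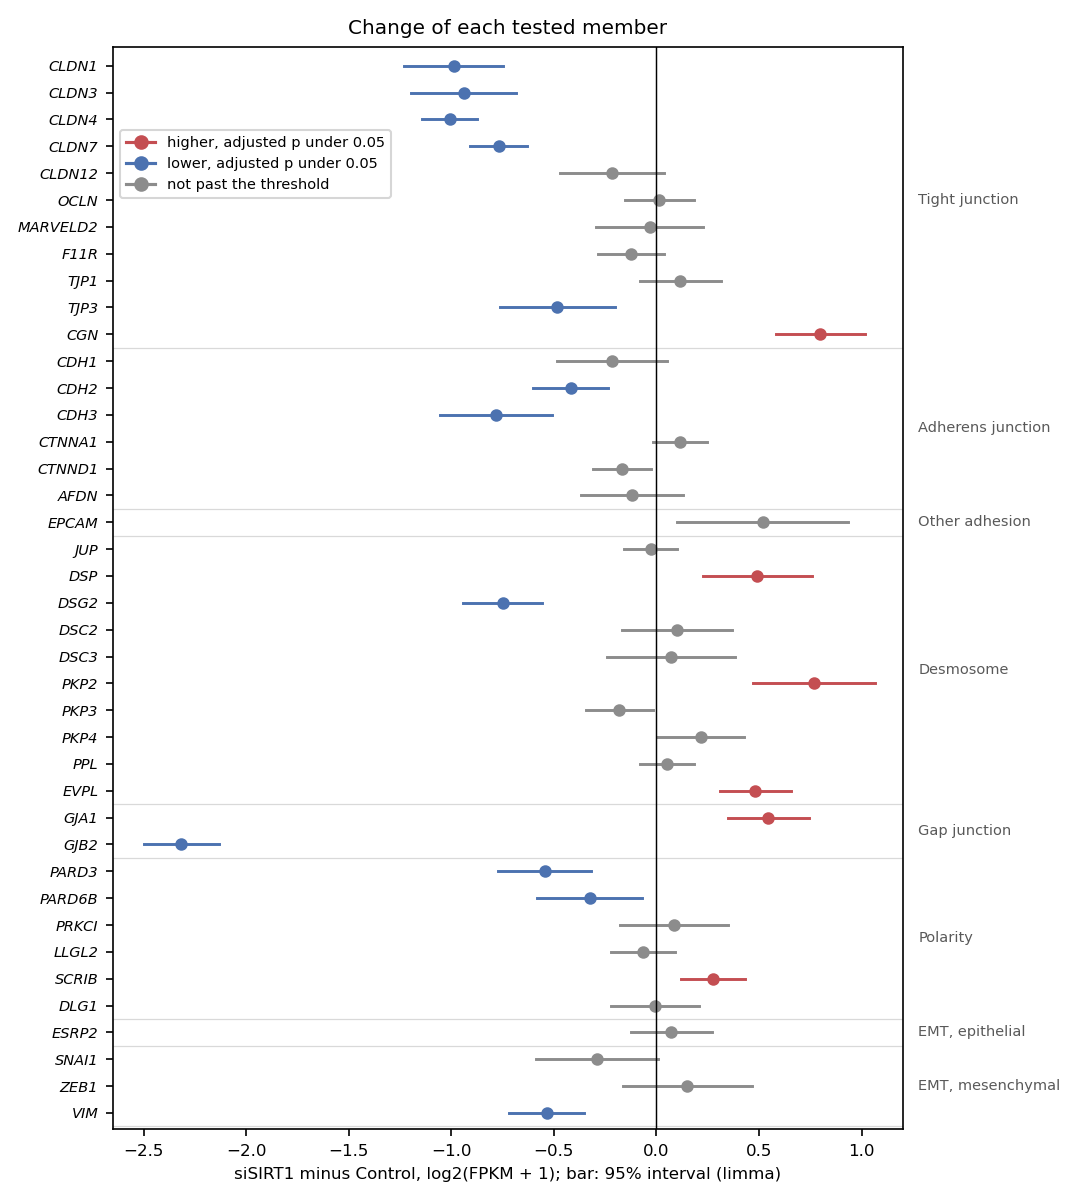
Change of each tested member in siSIRT1 relative to Control on the log2(FPKM + 1) scale (horizontal axis), with points for the limma estimate and bars for its 95% interval, grouped by junction type and marked by call. GJB2 lies farthest to the left at -2.32, 4 claudins lie between -1.01 and -0.77, and CGN and PKP2 lie farthest to the right at 0.80 and 0.77.

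**Figure D2:**
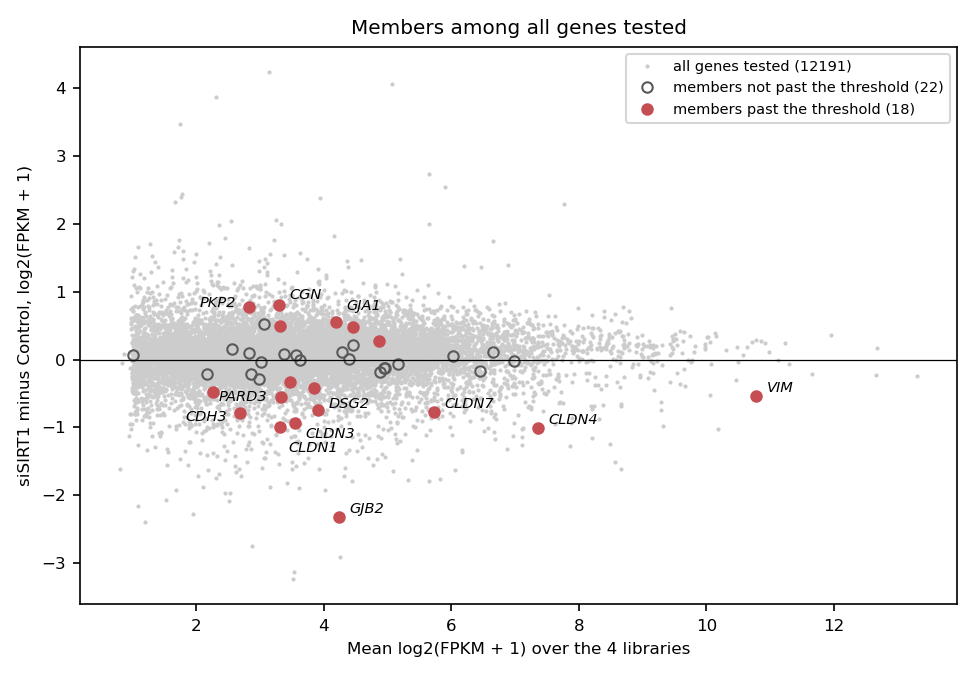
Mean log2(FPKM + 1) over the 4 libraries (horizontal axis) against the difference of siSIRT1 and Control on the same scale (vertical axis) for all 12191 genes tested (small points) and the 40 tested members (large points). Most members lie within the cloud of all genes, and GJB2 has the 6th lowest difference of all genes tested.

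Promoter sequences were examined for the E-box core bound by SNAI and ZEB proteins, since several of the members are textbook targets of those repressors. The motif searched was CAGGTG, which reads CACCTG on the other strand, in the 250 bases before and 50 bases after each start listed by RefSeq (GRCh38.p14). Of the 45 members, 26 matched a promoter entry, with 49 windows in all, some of which overlap. The 19 without an entry were not searched. They include CDH1 and the called genes CDH3, PKP2, EVPL, PARD3, PARD6B and SCRIB. At least 1 motif stood in 15 of the 49 windows (30.6%). This compares with 20.6% of all 35116 windows and 18.7% of the 14524 windows of tested genes. Counted by gene, it stood in 13 of the 26 (50%), beside 23.9% of the 9984 tested genes with an entry. The members had more windows per gene, 49 for 26 against 14524 for 9984, which gives a gene more places for a match. By call, among genes with an entry, 5 of 9 that fell held the motif (CLDN3, CLDN7, DSG2, GJB2 and TJP3). So did 1 of 3 that rose (DSP) and 7 of 13 that did not pass. CLDN1, CLDN4, CDH2 and VIM fell and had none in their windows, and CGN and GJA1 rose and had none. A match is only a match of letters, and no binding was measured in these libraries.

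The following GRCh38.p14 windows are shown because they belong to members whose RNA level differed between the groups. Each runs 5′ to 3′ along the gene's strand, with the motif whose position is given in capitals. In the CLDN7 window at 20 bases before the start, the next match follows in lower case.
CLDN3, chr7:73770221-73770246, minus strand, 36 bases after the start: caaagccacaggCAGGTGcaggcgca
CLDN7, chr17:7262635-7262664, minus strand, 174 bases before the start: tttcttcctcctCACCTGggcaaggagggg
CLDN7, chr17:7262596-7262625, minus strand, 135 bases before the start: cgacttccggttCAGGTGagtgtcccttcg
CLDN7, chr17:7262481-7262510, minus strand, 20 bases before the start: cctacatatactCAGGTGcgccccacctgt
GJB2, chr13:20192926-20192955, minus strand, 5 bases before the start: cacggcgggagaCAGGTGttgcggccccgc
TJP3, chr19:3721718-3721747, plus strand, 7 bases before the start: gaggaagaggggCAGGTGcagccgggagct
DSG2, chr18:31497933-31497962, plus strand, 232 bases before the start: acgtcacggtccCAGGTGcgagtgcgagcg
DSG2, chr18:31498049-31498078, plus strand, 116 bases before the start: tcgcggcggccaCACCTGgagccgcgcctt
DSP, chr6:7541481-7541510, plus strand, 178 bases before the start: gggcggcgggcgCAGGTGgggaggggcggc
DSP, chr6:7541574-7541603, plus strand, 85 bases before the start: gaagaaaccggcCAGGTGtggcctaggcgc
CLDN7 has 2 listed starts, and only 1 of their 300-base windows held matches. That window had 5 matches, the last 3 of them between 20 bases before and 5 bases after its start. TJP3 likewise has 2 listed starts, 1 of them with a match.

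Among the 11 tight junction genes, 5 fell, 1 rose and 5 did not pass the test, 54.5% called beside 37.1% of all genes. The falls were in the barrier-forming claudins and the scaffold TJP3, and the rise was in cingulin. In bulk RNA, fewer cells making a transcript and less transcript per cell cannot be told apart.

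CLDN4 (Entrez gene 1364), a barrier claudin of simple epithelia, was the most abundant member of the group. It was at 232.41 and 232.45 FPKM in Control against 118.53 and 111.69 in siSIRT1. The group means were 232 ± 0.0283 and 115 ± 4.84 FPKM (SD, n = 2 each), which is 49.5% of Control, and the groups lay far apart. The log2 fold change was -1.01 (standard error 0.06, limma adjusted p = 1.34e-05). CLDN3 (Entrez gene 1365) is its direct neighbour among protein-coding genes on chromosome 7 and another barrier claudin. It was at 13.68 and 16.80 FPKM in Control against 7.2 and 7.66 in siSIRT1 (48.8% of Control, log2 fold change -0.94, standard error 0.11, limma adjusted p = 0.000398).

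CLDN1, the claudin without which the skin barrier fails, was at 12.46 and 13.54 FPKM in Control against 5.60 and 6.53 in siSIRT1. Its means were 13.0 ± 0.764 and 6.07 ± 0.658 FPKM (SD, n = 2 each), equal to a log2 fold change of -0.99 (standard error 0.11, limma adjusted p = 0.000248). Both siSIRT1 libraries were again well below both Control libraries. CLDN7, a claudin found along the lateral membrane as well as in tight junctions, was at 69.19 and 67.27 FPKM in Control against 38.71 and 40.53 in siSIRT1. It kept 58.1% of the Control level (log2 fold change -0.77, standard error 0.06, limma adjusted p = 6.07e-05). These 4 claudins passed under every alternative run, the test against a fold of 1.2 included, and their adjusted p-values outside that test were up to 0.0146.

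The remaining claudin of the list, CLDN12, which lacks the usual binding motif for TJP scaffolds at its end, was at 7.10 and 6.60 FPKM in Control against 5.40 and 6.12 in siSIRT1. Its groups did not overlap, but the difference did not pass (log2 fold change -0.22, 95% interval -0.47 to 0.04, limma adjusted p = 0.159). Summed over the 5 claudins, the level was 335 and 337 FPKM in Control against 175 and 173 in siSIRT1, 0.518 times the Control mean. CLDN4 made up 69.4% and 69.0% of that sum in Control and 67.6% and 64.7% in siSIRT1, and the claudins kept 1 order by level in all 4 libraries, with CLDN4 first, then CLDN7, CLDN3, CLDN1 and CLDN12. The share of CLDN12 went from 2.12% and 1.96% to 3.08% and 3.55%.

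**Figure D3:**
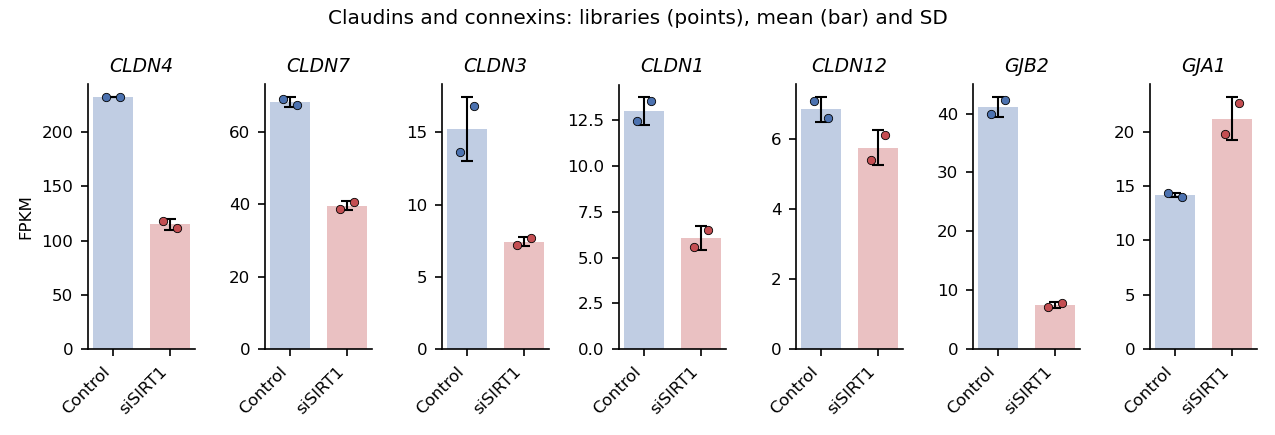
FPKM (vertical axes, each starting at 0) of the 5 claudins and both connexins of the list in the 2 Control and 2 siSIRT1 libraries, with points for libraries, bars for means and error bars for the SD. CLDN1, CLDN3, CLDN4, CLDN7 and GJB2 are lower in both siSIRT1 libraries, CLDN12 differs least, and GJA1 is higher in both.

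The other membrane proteins of the tight junction stood close to their Control levels. OCLN, which encodes occludin, was at 19.60 and 20.39 FPKM in Control against 20.55 and 19.86 in siSIRT1, with overlapping groups. Its log2 fold change was 0.01 (95% interval -0.15 to 0.18, limma adjusted p = 0.897), and the sign turned under the rescalings, to -0.06 or -0.07. A transcribed pseudogene, OCLNP1, lies on the same chromosome, and how reads shared between them were counted is not stated. MARVELD2, the tricellulin gene of three-way cell contacts and the direct neighbour of OCLN on chromosome 5, was at 6.93 and 7.44 FPKM in Control against 6.42 and 7.61 in siSIRT1. F11R, which encodes the adhesion molecule JAM-A, was at 30.42 and 31.95 FPKM in Control against 27.65 and 29.51 in siSIRT1. Neither passed the test, with limma adjusted p-values of 0.843 and 0.208.

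On the cytoplasmic side, the list holds 3 scaffold genes, of which 1 fell, 1 rose and 1 did not pass. TJP1, which encodes ZO-1, was at 17.47 and 18.16 FPKM in Control against 18.11 and 20.77 in siSIRT1, and the groups overlapped (limma adjusted p = 0.329). TJP3, which encodes ZO-3, a scaffold of epithelial cells, was at 4.35 and 5.05 FPKM in Control against 3.02 and 3.12 in siSIRT1, with means of 4.70 ± 0.495 and 3.07 ± 0.0707 FPKM (SD, n = 2 each). Its log2 fold change was -0.48 (standard error 0.12, limma adjusted p = 0.0147). Without Control 2 the adjusted p was 0.140 with a log2 fold change of -0.39, so the call was lost there as it was against a fold of 1.2. Over the other alternatives that kept all libraries, it ran from 0.00621 to 0.0499.

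CGN (Entrez gene 57530), which encodes cingulin, an actin- and myosin-binding protein of the junction's inner face, was the only tight junction member that rose. It was at 6.24 and 6.73 FPKM in Control against 12.05 and 11.98 in siSIRT1, with means of 6.49 ± 0.346 and 12.02 ± 0.0495 FPKM (SD, n = 2 each). Both siSIRT1 libraries were about 1.85 times the Control mean. The log2 fold change was 0.80 (standard error 0.09, limma adjusted p = 0.000398). Relative to ZO-1, CGN stood at 0.357 and 0.371 times the FPKM of TJP1 in Control against 0.665 and 0.577 times in siSIRT1. Added over the 11 genes, tight junction members came to 420 and 426 FPKM in Control against 263 and 265 in siSIRT1, with CLDN4 as the largest part in every library.

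In the adherens junction group, 2 of 6 tested genes fell and none rose, so that the share called, 33.3%, was near the 37.1% of all genes. Both that fell were classical cadherins. CDH3 (Entrez gene 1001), which encodes P-cadherin, was at 6.80 and 8.07 FPKM in Control against 4.03 and 3.77 in siSIRT1. Its means were 7.44 ± 0.898 and 3.90 ± 0.184 FPKM (SD, n = 2 each), or 52.5% of Control (log2 fold change -0.78, standard error 0.12, limma adjusted p = 0.00139). CDH2, which encodes N-cadherin, the cadherin usually gained in EMT, was at 15.63 and 15.55 FPKM in Control against 11.35 and 11.48 in siSIRT1. It kept 73.2% of the Control level (log2 fold change -0.42, standard error 0.08, limma adjusted p = 0.00427).

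CDH1, which encodes E-cadherin, the main adhesion protein of epithelia, is the direct neighbour of CDH3 on chromosome 16. It was low in all libraries, at 3.89 and 3.75 FPKM in Control against 3.05 and 3.25 in siSIRT1. Both siSIRT1 values lay below both Control values, but the difference did not pass (log2 fold change -0.22, 95% interval -0.49 to 0.05, limma adjusted p = 0.186). N-cadherin RNA exceeded E-cadherin RNA in every library, with a CDH2 to CDH1 ratio of FPKM of 4.02 and 4.15 in Control and 3.72 and 3.53 in siSIRT1.

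Catenins and their partners were abundant and did not pass the test. CTNNA1, which encodes alpha-catenin, the link from cadherins to actin, was at 96.44 and 95.10 FPKM in Control against 101.14 and 106.42 in siSIRT1 (limma adjusted p = 0.158). CTNND1, which encodes p120-catenin, a stabilizer of cadherins at the membrane, was at 89.07 and 95.02 FPKM in Control against 79.92 and 83.85 in siSIRT1. The latter was close to the threshold, with a log2 fold change of -0.17 (95% interval -0.31 to -0.02) and a limma adjusted p of 0.0664, and it passed under each of the 3 rescalings and without siSIRT1 2 (adjusted p = 0.0443), over a range of 0.0169 to 0.175 with all libraries. AFDN, which encodes afadin, the partner of nectins, was at 30.79 and 32.33 FPKM in Control against 25.48 and 32.95 in siSIRT1, so the siSIRT1 libraries themselves disagreed and the groups overlapped (limma adjusted p = 0.434). Without siSIRT1 2 its log2 fold change was -0.30 (adjusted p = 0.0193), and without siSIRT1 1 it was 0.06, so the value rests on which of them is used.

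EPCAM, an adhesion molecule of epithelia that stabilizes claudins, spread even more. It was at 5.34 and 6.70 FPKM in Control against 11.21 and 7.19 in siSIRT1, where the libraries differed more from each other than the higher Control library did from the lower siSIRT1 library. The log2 fold change was 0.52 (95% interval 0.10 to 0.94) and the limma adjusted p was 0.0555. It was 0.0370 without Control 2 and 0.00840 without siSIRT1 2, but 0.216 without Control 1 and 0.273 without siSIRT1 1, and the log2 fold change ran from 0.23 to 0.81 over these fits.

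Of the 10 desmosome genes, 3 were higher, 1 was lower and 6 did not pass the test, and the 40% called was near the 37.1% of all genes. The fall was in the membrane-spanning cadherin DSG2, and the rises were in 3 proteins of the plaque or its keratin links. DSG2 (Entrez gene 1829), the desmoglein of simple epithelia, was at 18.21 and 18.65 FPKM in Control against 10.13 and 10.99 in siSIRT1. With means of 18.4 ± 0.311 and 10.6 ± 0.608 FPKM (SD, n = 2 each), it kept 57.3% of the Control level (log2 fold change -0.75, standard error 0.08, limma adjusted p = 0.000302).

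PKP2 (Entrez gene 5318), a plakophilin that recruits desmoplakin to the plaque, was at 4.46 FPKM in both Control libraries and at 7.28 and 9.43 FPKM in siSIRT1. The siSIRT1 libraries differed from each other (mean 8.36 ± 1.52 FPKM, SD, n = 2), yet both were well above Control (1.87 times, log2 fold change 0.77, standard error 0.13, limma adjusted p = 0.00231). EVPL, which encodes envoplakin, a plakin that ties desmosomes to keratins and the cornified envelope, was at 18.00 and 17.27 FPKM in Control against 26.03 and 24.06 in siSIRT1. Its rise was 1.42-fold (log2 fold change 0.48, standard error 0.08, limma adjusted p = 0.00164). DSP, which encodes desmoplakin, the main plakin of the desmosome, was at 7.50 and 7.23 FPKM in Control against 9.64 and 12.01 in siSIRT1. It passed with all libraries (log2 fold change 0.49, standard error 0.12, limma adjusted p = 0.0108). The call was lost against a fold of 1.2, without Control 2 (adjusted p = 0.0522) and without the filter on low values (0.0580), and the lowest adjusted p over the alternatives was 0.00177.

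The level of DSG2 relative to DSP and PKP2 therefore shifted, which follows from the calls above and is no separate test. DSG2 was at 2.43 and 2.58 times the FPKM of DSP in Control and at 1.05 and 0.915 times in siSIRT1. It stood at 4.08 and 4.18 times the FPKM of PKP2 in Control, against 1.39 and 1.17 times in siSIRT1. Added over all 10 genes, the desmosome members came to 295 and 292 FPKM in Control against 300.1 and 302 in siSIRT1, so the sum changed little, with JUP and PPL as its largest parts.

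JUP, which encodes plakoglobin, shared by desmosomes and adherens junctions, was at 127.50 and 124.90 FPKM in Control against 125.78 and 121.92 in siSIRT1 (log2 fold change -0.03, 95% interval -0.16 to 0.10, limma adjusted p = 0.741). PPL, which encodes periplakin, the partner of envoplakin, was at 62.66 and 63.37 FPKM in Control against 65.92 and 64.69 in siSIRT1. Its log2 fold change of 0.05 did not pass (limma adjusted p = 0.530) and turned to between -0.04 and -0.03 under the rescalings, so EVPL rose beside a partner without a detected change. PKP3, a plakophilin found broadly in epithelia, was at 31.35 and 29.51 FPKM in Control against 27.53 and 25.94 in siSIRT1 (limma adjusted p = 0.0785). PKP4, a relative of p120-catenin that is also found at adherens junctions, was at 18.57 and 20.23 FPKM in Control against 20.93 and 24.55 in siSIRT1 (limma adjusted p = 0.102, and 0.0281 without siSIRT1 1, over a range of 0.0291 to 0.297 with all libraries).

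Neither desmocollin of the list passed the test. DSC2, the desmocollin of simple epithelia, was at 5.96 and 5.76 FPKM in Control against 5.80 and 6.95 in siSIRT1. DSC3, a desmocollin of stratified epithelia, was near the filter at 0.98 and 0.95 FPKM in Control against 1.04 and 1.09 in siSIRT1. Their limma adjusted p-values were 0.540 and 0.718. CDH2, DSC3 and DSC2 follow each other with no protein-coding gene between them on chromosome 18, and 4 (DSC1, DSG1, DSG4 and DSG3) stand between DSC2 and DSG2. In this order, which takes no account of distance, CDH2 and DSG2 stand at the ends and passed the test. The desmocollins of the list between them did not.

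The gap junction genes moved in opposite directions. GJB2 (Entrez gene 2706), which encodes connexin 26, was at 39.96 and 42.31 FPKM in Control against 7.14 and 7.79 in siSIRT1. Averaged, this was 41.1 ± 1.66 FPKM against 7.47 ± 0.460 FPKM (SD, n = 2 each), which is 18.1% of Control, a 5.51-fold lower value. These levels came from about 797 and 855 reads in Control and from about 138 and 158 in siSIRT1. The log2 fold change was -2.32 (standard error 0.08, limma adjusted p = 1.02e-06), and over the alternatives it ran from -2.45 to -2.26. Only 5 of the 12191 genes tested had a lower log2 fold change.

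GJA1, which encodes connexin 43, the most widespread connexin, was at 14.33 and 14.03 FPKM in Control against 19.80 and 22.61 in siSIRT1. It rose 1.5-fold, from 14.2 ± 0.212 to 21.2 ± 1.99 FPKM (SD, n = 2 each, log2 fold change 0.55, standard error 0.09, limma adjusted p = 0.00166). GJB2 RNA was thus at 2.79 and 3.02 times the FPKM of GJA1 in Control and at 0.361 and 0.345 times in siSIRT1. Between GJB2 and GJA1, the connexin with the higher level changed from GJB2 in both Control libraries to GJA1 in both siSIRT1 libraries. GJC1, a connexin gene outside the list, was at 20.62 and 22.39 FPKM in Control against 17.16 and 17.97 in siSIRT1. It thus lay above GJA1 in Control and above GJB2 in siSIRT1.

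Of the 6 polarity genes, 2 fell, 1 rose and 3 did not pass, or 50% called beside 37.1% of all genes, and the calls of PARD6B and SCRIB were lost under several alternatives. PARD3, the scaffold of the PAR complex at tight junctions, was at 11.17 and 11.15 FPKM in Control against 6.88 and 7.81 in siSIRT1. It kept 65.8% of the Control level (11.2 ± 0.0141 against 7.35 ± 0.658 FPKM, SD, n = 2 each), with a log2 fold change of -0.55, a standard error of 0.10 and a limma adjusted p of 0.00323. PARD6B, the adaptor that brings atypical protein kinase C into the same complex, was at 10.20 and 12.61 FPKM in Control against 8.73 and 8.97 in siSIRT1 (log2 fold change -0.33, standard error 0.11, limma adjusted p = 0.0496). This call was marginal: the adjusted p was 0.410 without Control 2, 0.130 without siSIRT1 1 and 0.0957 without siSIRT1 2, the call was lost against a fold of 1.2, and other alternatives with all libraries gave 0.0161 to 0.128. PRKCI, which encodes the kinase itself, was at 9 and 9.21 FPKM in Control against 8.69 and 10.88 in siSIRT1, with overlapping groups (limma adjusted p = 0.595).

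SCRIB, the basolateral scaffold that gives the Scribble complex its name, was at 26.06 and 24.88 FPKM in Control against 31.68 and 30.41 in siSIRT1. The rise was 1.22-fold (log2 fold change 0.28, standard error 0.07, limma adjusted p = 0.0136). It did not pass against a fold of 1.2, without Control 1 (adjusted p = 0.0663), without Control 2 (0.143) or under any of the 3 rescalings, where the highest adjusted p was 0.0798, and the lowest over the alternatives was 0.00358. LLGL2 and DLG1, which act with it on the basolateral side, did not pass. LLGL2 was at 35.62 and 35.37 FPKM in Control against 32.60 and 35.20 in siSIRT1 (limma adjusted p = 0.488). DLG1 was at 11.12 and 11.59 FPKM in Control against 10.63 and 11.99 in siSIRT1, with a log2 fold change of -0.01 (95% interval -0.22 to 0.21, limma adjusted p = 0.961).

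Among the EMT genes, 4 of the 9 in the tables were tested and VIM alone passed. VIM (Entrez gene 7431), which encodes vimentin, the intermediate filament of mesenchymal cells, was by far the most abundant member at 2198 and 2049 FPKM in Control against 1503 and 1427 in siSIRT1. With means of 2123 ± 106 and 1465 ± 54.3 FPKM (SD, n = 2 each), it kept 69.0% of the Control level (log2 fold change -0.53, standard error 0.08, limma adjusted p = 0.00126). Without Control 1 the adjusted p was 0.0953 with a log2 fold change of -0.48, and over the alternatives that kept all libraries it was at most 0.0227. VIM RNA exceeded CDH1 RNA 565- and 546-fold in Control and 493- and 439-fold in siSIRT1. CDH1 was low in every library, so this ratio does not stand for epithelial genes in general. KRT8 RNA lay above VIM RNA in every library, whereas KRT7 and KRT19 RNA lay below it. KRT18 RNA lay below VIM RNA in Control and above it in siSIRT1.

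The other EMT genes over the filter were at moderate levels and did not pass. SNAI1, which encodes the repressor Snail, was at 8.88 and 6.81 FPKM in Control against 6.38 and 5.99 in siSIRT1 (log2 fold change -0.29, 95% interval -0.59 to 0.01, limma adjusted p = 0.114). ZEB1, another repressor of epithelial genes, was at 4.48 and 4.75 FPKM in Control against 4.53 and 6.02 in siSIRT1, with overlapping groups (limma adjusted p = 0.431). ESRP2, a splicing regulator of the epithelial state, was at 10.45 and 10.48 FPKM in Control against 10.83 and 11.30 in siSIRT1 (limma adjusted p = 0.55).

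The 5 members under the filter were all EMT factors. SNAI2, which encodes Slug, was at 0.17 FPKM in both Control libraries and at 0.58 and 1.01 FPKM in siSIRT1, from about 3, 3, 11 and 19 reads. In the fit without a filter on low values its log2 fold change was 0.61 (standard error 0.13, limma adjusted p = 0.0418), at reads that leave the size of the difference uncertain. ESRP1, the partner of ESRP2 in epithelial splicing, was at 0.03 to 0.09 FPKM from 1 to 3 reads a library. GRHL2, an activator of epithelial junction genes, was listed at 0 in both Control libraries and at 0.02 FPKM in both siSIRT1 libraries, where 3 reads correspond to 0.0636 to 0.0665 FPKM. OVOL1, a repressor of mesenchymal genes, was at 0.08 FPKM in Control 2 from about 2 reads and at 0 in the other libraries, where 3 reads correspond to 0.113 to 0.118 FPKM. ZEB2 was at 0.09 to 0.14 FPKM from 8 to 12 reads. Differences in ESRP1, GRHL2 and OVOL1 were not detectable at this depth.

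**Figure D4:**
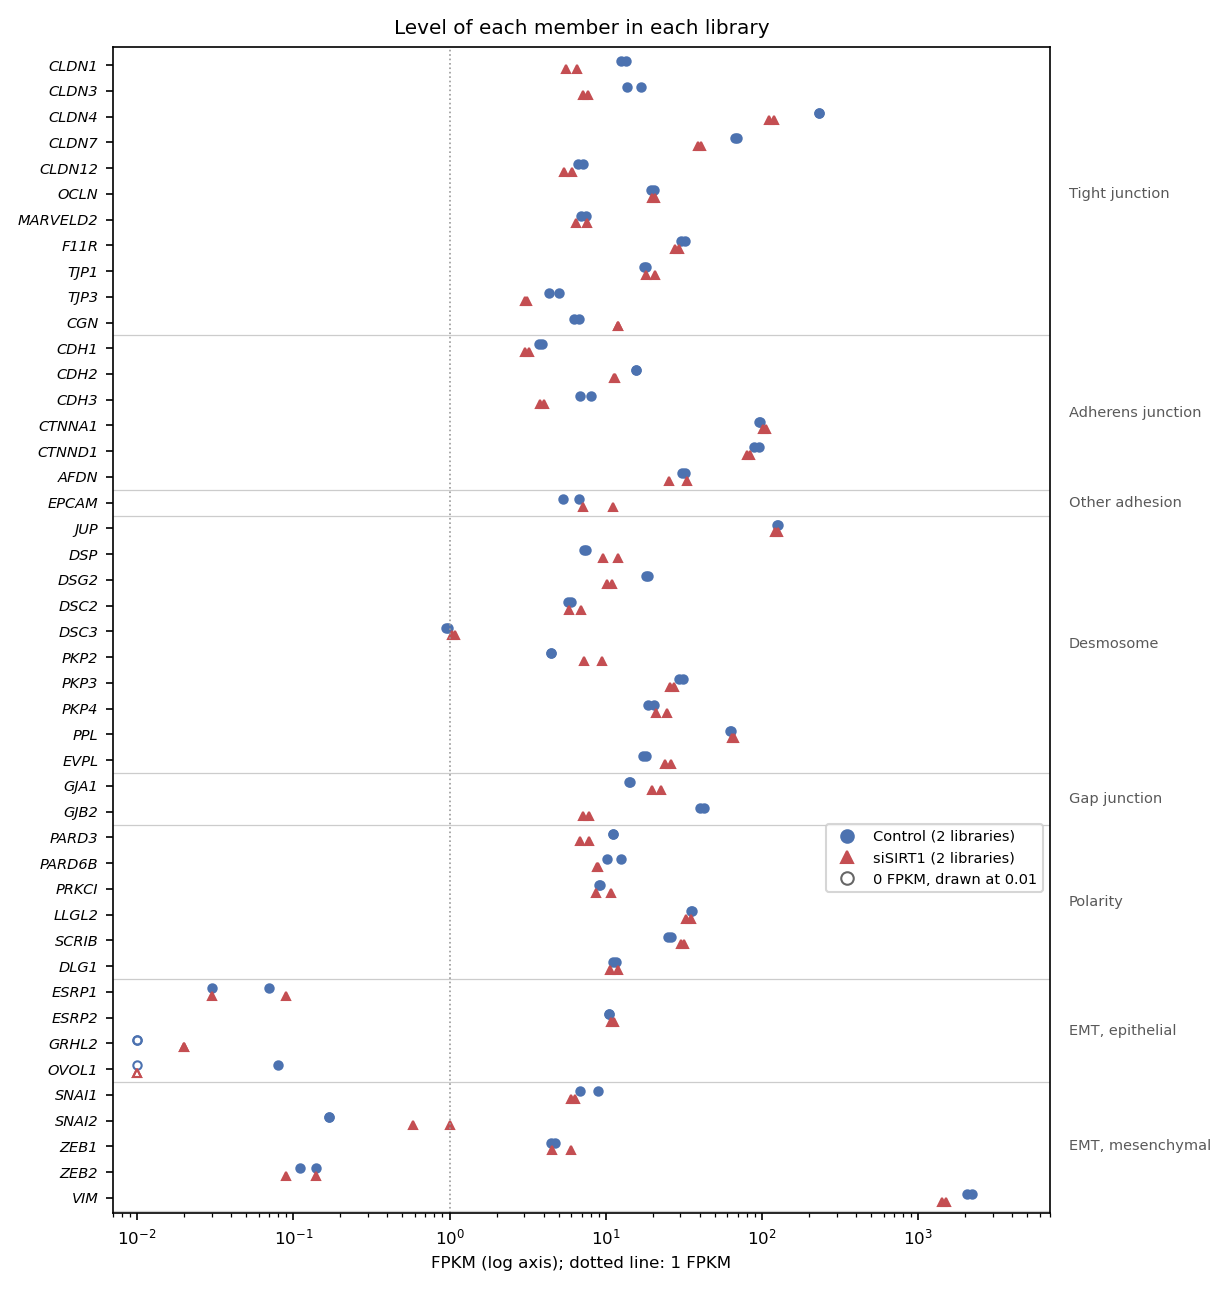
FPKM of the members in each of the 4 libraries (horizontal log axis), grouped by junction type, with 1 mark per library, open marks at the left edge for values listed at 0, and a dotted line at 1 FPKM. VIM lies highest at 1427 to 2198 FPKM, followed by CLDN4 and JUP and then CTNNA1. CLDN4 lies above JUP in Control and below it in siSIRT1. ESRP1, GRHL2, OVOL1 and ZEB2 stay below the line in every library.

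A wider list of 97 junction, polarity and EMT genes outside the members was read from the same fit. Of these, 94 were in the tables and 61 were tested, and 19 passed, 10 higher and 9 lower, or 31.1% beside 37.1% of all genes. That count was 8 without Control 1, 9 without Control 2, 15 without siSIRT1 1 and 21 without siSIRT1 2. Among 7 other claudins tested, CLDN11 rose, CLDN9 fell and 5 did not pass. CTNNB1, which encodes beta-catenin, was at 53.46 and 56.93 FPKM in Control against 57.58 and 61.08 in siSIRT1 (limma adjusted p = 0.252).

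Among the largest rises of that list were CLDN11, JAM3, LIN7B and PRKCZ. CLDN11 was low, at 0.77 and 1.46 FPKM in Control against 3.43 and 2.64 in siSIRT1 (log2 fold change 0.94, standard error 0.19, limma adjusted p = 0.00462). JAM3, a relative of F11R, was at 14.80 and 16.93 FPKM in Control against 29.40 and 32.83 in siSIRT1 (log2 fold change 0.93, standard error 0.09, limma adjusted p = 0.000154). LIN7B, an adaptor of the Crumbs polarity complex, went from 3.86 ± 0.488 to 7.89 ± 1.07 FPKM (SD, n = 2 each, log2 fold change 0.87, limma adjusted p = 0.00126). In each of these genes both siSIRT1 libraries lay above both Control libraries. PRKCZ, the atypical kinase related to PRKCI, was at 15.37 and 15.49 FPKM in Control against 22.32 and 21.97 in siSIRT1 (log2 fold change 0.49, limma adjusted p = 0.00116).

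Among the largest falls were SNAI3, ELF3, CDC42 and CLDN9. ELF3, an epithelial transcription factor, was at 26.43 and 25.78 FPKM in Control against 17.54 and 17.41 in siSIRT1 (log2 fold change -0.55, standard error 0.07, limma adjusted p = 0.000565). CDC42, the small GTPase that activates the PAR complex, was at 81.90 and 87.31 FPKM in Control against 61.34 and 57.14 in siSIRT1 (log2 fold change -0.51, standard error 0.07, limma adjusted p = 0.000604). SNAI3, a relative of SNAI1, and CLDN9 were under 2 FPKM, with log2 fold changes of -0.56 and -0.50 and limma adjusted p-values of 0.0126 and 0.0268. Neither call held without Control 2, where the adjusted p-values were 0.0832 and 0.0538, and that of CLDN9 did not hold without Control 1 (0.175) or without siSIRT1 2 (0.0767) either.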

How the data were processed

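PANC-1 cells (2 Control and 2 siSIRT1 libraries) were profiled by RNA-seq. For each library the authors deposited a table of gene-level FPKM, rounded to 2 decimals. The submitters' processing notes name HISAT, Bowtie2, RSEM and ChIPseeker without roles or versions. The genome build is not given in the sources used here, and neither strand use nor the assignment of reads shared with antisense genes or pseudogenes is stated.

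The 12191 of 16878 genes whose mean reached 1 FPKM were tested on log2(FPKM + 1) by limma 3.58.1 (R 4.3.3, lmFit, eBayes with trend), two-sided, with Benjamini-Hochberg adjustment over all of them and a threshold of 0.05. Fold changes on this scale understate low genes. An exact permutation test of 2 against 2 libraries cannot go below p = 0.333. The labels do not say whether replicates were separate cultures, so p-values measure the spread between these libraries, which may be technical. All members in the tables are named, with the 5 largest rises and falls past the threshold in the wider list, some of which are not reported here. Members and lists were chosen with earlier results of these data known.

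Depth was estimated from steps of 1 read in the low FPKM values of 63 to 91 single-exon genes per library, and reads per gene from GENCODE canonical lengths. Estimates and floors of 3 reads cover counting error only. Promoters came from RefSeq (GRCh38.p14), and 16846 of 16878 gene identifiers matched its symbols. The fit was tested on simulated data. Alternatives were a pseudocount of 0.1, no filter, 3 rescalings, the replicate block, eBayes without trend, limma's treat against a fold of 1.2, and leaving out each library. A library left alone in its group was assumed to vary like the other group.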

Additional observations from a re-analysis of the deposited data

How the results depend on the processing

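Under treat against a fold of 1.2 the number of members past the threshold went from 18 to 11, that of the wider list from 19 to 5 and that of all genes from 4521 to 1364, since the null is then wider. The members lost there were TJP3, CDH2, DSP, EVPL, PARD3, PARD6B and SCRIB. Leaving out 1 library gave 15 to 20 members, 8 to 21 genes of the wider list and 2691 to 4608 genes in all, with fewer samples in each fit. The other alternatives gave 17 to 22 members. In the labels, same-numbered libraries share only a number, and whether they were prepared together is not stated (correlation of their deviations 0.123). With the replicate block 22 members passed, 8 higher and 14 lower, including all 18 called without it and in addition CTNND1, EPCAM, PKP3 and PKP4, and 5393 genes in all. Rescaling to quantiles, upper quartiles or medians of ratios lost SCRIB, gained CTNND1 and PKP3, and shifted the median of all genes by -0.06, -0.07 and -0.08. Signs turned only in members that did not pass. OCLN (0.014) went to -0.056, -0.070 and -0.059 under quantile, median-of-ratios and upper-quartile scaling, PPL (0.051) to -0.033, -0.036 and -0.026, and ESRP2 (0.073) to -0.0075 under median-of-ratios scaling. Leaving out 1 library, the log2 fold change ran from -0.013 to 0.042 for OCLN, -0.14 to 0.074 for MARVELD2, -0.30 to 0.061 for AFDN, -0.013 to 0.21 for DSC2, -0.060 to 0.23 for PRKCI, -0.087 to 0.073 for DLG1 and -0.022 to 0.32 for ZEB1. Depth limits ESRP1, GRHL2, OVOL1, SNAI2 and ZEB2, which had at most 19 reads a library.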
